A study of Mus musculus with 28 samples.

Results

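The genes described here are the amino acid transporters of the mouse that belong to the solute carrier families SLC1, SLC3, SLC6, SLC7, SLC36, SLC38 and SLC43. They were chosen by symbol, through the RefSeq accession that each array probe carries, and a gene with several probes was read from its brightest one. Of 60 such genes in the RefSeq table, 49 had a matching probe, out of 38726 features measured in all. The genes were picked by symbol without an expression value, but with earlier results of these data known. The other 11, for which no probe matched, were Slc1a1, Slc6a16, Slc6a21, Slc7a2, Slc36a1, Slc36a3, Slc38a6, Slc38a8, Slc38a9, Slc38a11 and Slc43a1.

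RNA was measured on 28 single-colour Agilent arrays, 2 for each of 14 groups of mouse germ cells, cell lines derived from them or from embryos, and testis. Primordial germ cells (PGC), which later give rise to eggs or sperm, were taken from female and male embryos of 3 ages, E10.5, E13.5 and E17.5 in days after mating, all from the cross BDF1 x TgN(deGFP)18Imeg. Spermatogonia and oogonia, of unstated age, came from BDF1 x Tg(Mvh-Venus)1Rbrc. The cultured lines were embryonic germ (EG) cells of both sexes from Rb(X.2)2Ad X 129/Sv, a female embryonic stem (ES) line called no5 from 129/Sv, a male ES line called TMA5 from an F1 hybrid of TgN (deGFP)20Imeg and MSM/Ms, and male germline stem (GS) cells from DBA/2. For the EG samples the labels give an age of 12.5 days after mating. Their source entry reads PGC where the title reads EG, and the title was followed here. Whole adult testis was from C57BL/6J and holds somatic cells and later germ cells besides spermatogonia. The labels say nothing of pooling, clones, passage, feeder cells or sorting, nor whether both samples of a group had their own animal or culture. The p-values therefore cover only sample-to-sample spread, some or all of which could be technical. PGC, gonia, EG, ES, GS and testis differ in strain as well as in cell type, and between those the effects of strain, slide and cell type cannot be told apart (GS and testis shared a slide, but not a strain).

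Amino acid transporters carry the building blocks of protein, and also neurotransmitters, taurine, creatine and glutathione precursors, across membranes. SLC7 light chains such as Slc7a5 reach the cell surface only when paired with a heavy chain of the SLC3 family, and they exchange one amino acid for another, so that they depend on uptake by sodium-coupled carriers of the SLC1, SLC6 and SLC38 families. Leucine brought in by the pair of Slc7a5 and Slc3a2 activates the growth kinase mTORC1, and cystine brought in by Slc7a11 feeds the synthesis of glutathione. Cultured ES cells are known for a high demand for threonine and glutamine.

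Levels are given on a log2 scale on which 0 is the array's 75th percentile over those probes that passed the background test on every array. "Well above background" is the scanner software's own test for each spot. Between 17.8% and 76.7% of probes passed it on an array, and the dimmest passing signal lay between -10.72 and -3.58, with the highest limits on the first arrays of E10.5 male and female PGC. Values under that limit have no order, and a gene below it on every array of one side is given as "at least N-fold": the brighter side's mean over the dim side's detection limit, or over the dim probe's own level where that was higher. Differences were tested with limma across all features, and "called" means a Benjamini-Hochberg adjusted p under 0.05. How the calls held under other processing was followed for 126 gene results, each gene and comparison counted once, and statements that a call was kept or lost refer to those. Several comparisons share a group, so their results are not independent. Each ± beside a difference is its SE, with n = 2 arrays per group, and SD is given with levels. The germ cell markers Ddx4, Dazl and Dppa3 were all detected on both arrays of all 13 groups other than testis, which lacked Dppa3. All 3 pluripotency markers (Pou5f1, Nanog and Sox2) were detected on both arrays of each EG and ES group. In bulk samples, fewer cells of a type and less RNA per cell cannot be told apart.

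Of the 49 genes, 7 were well above background on all 28 arrays: Slc1a5, Slc3a2, Slc6a9, Slc7a5, Slc7a6, Slc38a2 and Slc38a10. On both arrays of at least 1 group, 44 were detected. Slc6a5, Slc6a18, Slc6a19 and Slc7a12, carriers best known from nerve, kidney and gut, were detected on no array, and Slc7a13 on 1 testis array only. Detected on both arrays of a single group were Slc1a2, Slc6a14, Slc7a15 and Slc36a4 in testis and Slc6a2, the noradrenaline transporter, in GS cells. E17.5 male PGC had 30 transporters detected on both arrays (61.2%, against 39.4% of all features), whereas E17.5 female PGC had 10 (20.4%, against 31.5% of all features). Spermatogonia had 26 (53.1%, against 39.2% of all features) and oogonia 16 (32.7%, against 43.8% of all features). Testis, GS cells and the female ES line had the most, with 37, 36 and 32 (75.5%, 73.5% and 65.3%), and the same groups had the highest shares of all features, at 73.7%, 66.4% and 55.6%.

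**Figure D1:**
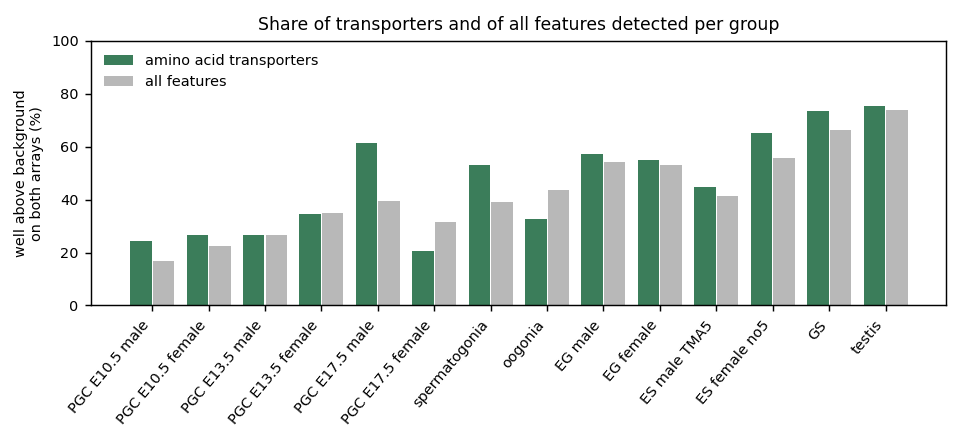
Share of the 49 transporters (green) and of all features (grey) that were well above background on both arrays, in %, for each of the 14 groups. Transporters stand at 61.2% in E17.5 male PGC and at 20.4% in E17.5 female PGC, where all features stand at 39.4% and 31.5%.

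For the 44 detected genes, groups were ranked by mean level, counting only groups with both arrays well above background. The highest was E17.5 male PGC for 11, the female ES line for 10 and testis for 8. The 11 were Slc1a6, Slc6a3, Slc6a4, Slc6a11, Slc6a12, Slc6a13, Slc6a17, Slc7a5, Slc36a2, Slc38a3 and Slc38a5. Among the 10 were Slc1a4, Slc1a5, Slc3a2, Slc6a8, Slc6a15, Slc7a1, Slc7a3, Slc7a7 and Slc38a1. E10.5 PGC held the highest levels of Slc1a3 (females) and of Slc7a6 and Slc7a9 (males). Oogonia held those of Slc6a9 and Slc7a11, and spermatogonia those of Slc7a10 and Slc7a14. GS cells were highest for Slc6a2, Slc38a10, Slc43a2 and Slc43a3, female EG cells for Slc6a6, Slc7a4 and Slc38a7, and the male ES line for Slc38a2. Slc6a2 read -5.71 and -9.49 in GS cells, and -5.10 on the 1 E17.5 male array that detected it. No group of E13.5 PGC and not E17.5 female PGC was the highest for any of them.

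**Figure D2:**
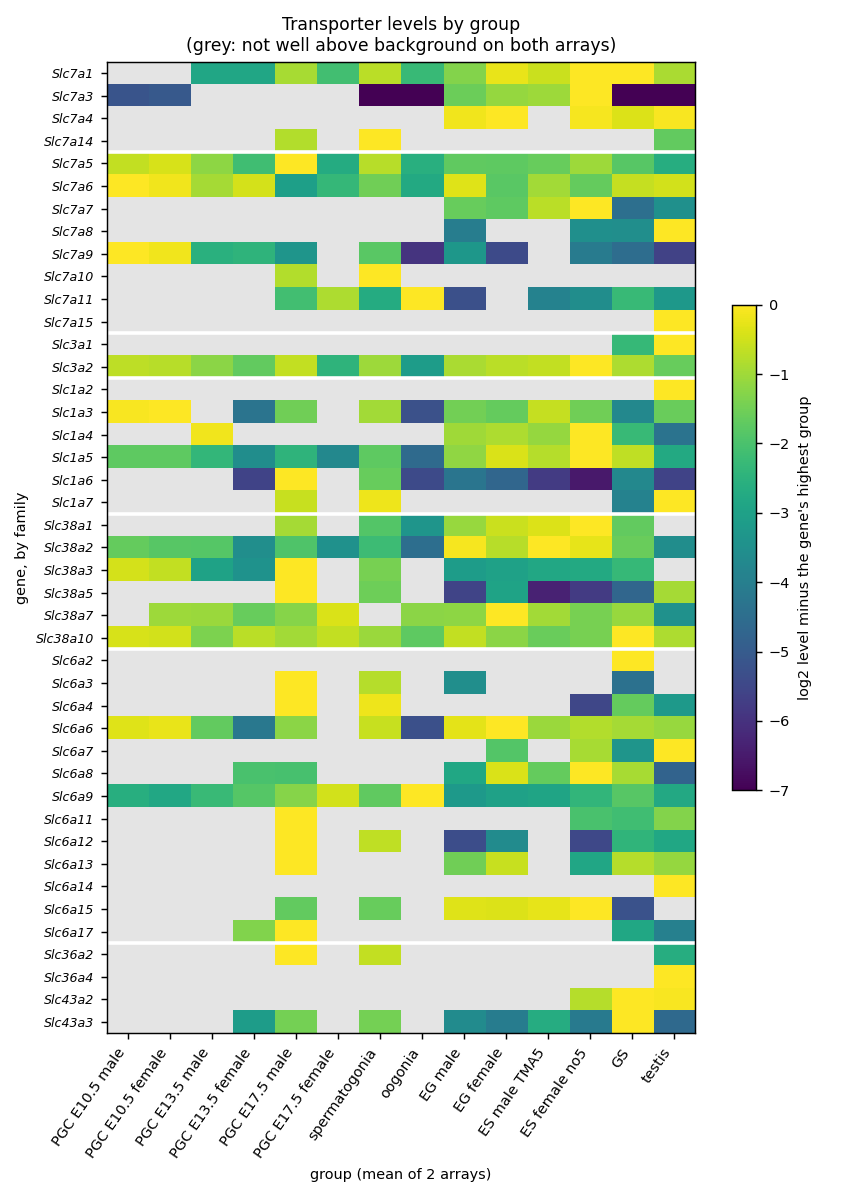
Mean log2 level of detected transporters (down, by family) in the 14 groups (across), as the difference from each gene's highest group among those not grey. The colour scale ends at -7 and grey cells were not well above background on both arrays. The columns of E17.5 male PGC and spermatogonia are filled for many SLC6 genes that are grey in E17.5 female PGC and oogonia.

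Between E10.5 and E13.5, as germ cells enter the gonad and commit to a sex, several transporters that were strong in E10.5 PGC fell in both sexes. In females, 9 transporters were lower at E13.5 than at E10.5 and 3 were higher, of 18 tested (66.7% called and 50% lower, where 35% of all features were called, 9.95% lower and 25.1% higher; median difference -0.78, against 0.39 over all features). In males, 6 were lower and 1 was higher of 15 tested (40% lower, where 9.32% of all features were lower and 17.7% higher; median -0.64, against 0.21). Since a gene could enter through the brighter group alone, the genes detected on every array of both stages were also counted. In females, 8 of those 12 were lower at E13.5 and 1 was higher, beside 14.3% and 19.9% of all such features. In males, 4 of 10 were lower and none was higher, beside 12.7% and 11% of all such features. The Sertoli markers summed to 1.08 and -0.12 in E13.5 males, with all 5 detected on both arrays, against -1.85 and -2.29 in E10.5 males, with 1 of 5, and to -3.51 and -3.64 in E13.5 females, against -1.74 and -2.63 in E10.5 females, with 2 of 5 at both ages. The pregranulosa markers, of the somatic cells around female germ cells, summed to -2.87 and -2.89 in E13.5 females, with 3 of 4 detected, against -4.21 and -5.14 in E10.5 females, with none detected on both arrays. Foxl2, of this list, was detected on no array of any group. The part of both marker lists in the changes was not tested.

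Of the cationic amino acid carriers, Slc7a3 was at -8.77 and -10.18 in E13.5 females, on neither array above background, against -3.21 and -3.44 in E10.5 females, at least 15.2-fold lower. Slc7a3 stood at -6.25 and -7.20 in E13.5 males, above background on the first array only, against -3.47 and -3.40 in E10.5 males (-3.29 ± 0.37, limma adjusted p = 8.75e-06). All 4 E13.5 arrays thus lay below all 4 E10.5 arrays. Slc7a1, the widely used arginine and lysine carrier, went the other way and was 2.69-fold higher in E13.5 than in E10.5 females and 2.52-fold higher in males. On each E10.5 side only 1 of 2 arrays detected it.

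Slc7a9, a light chain that takes up cystine and dibasic amino acids, was at -4.63 and -4.19 in E13.5 females and -4.63 and -4.43 in E13.5 males, against -2.05 and -2.17 in E10.5 females and -1.97 on both arrays of E10.5 males. It fell 4.92-fold in females and 5.88-fold in males, and no E13.5 array reached an E10.5 array. Its heavy chain Slc3a1 was detected on no E10.5 or E13.5 array. Slc7a5, the main carrier of leucine and other large neutral amino acids, was at 0.38 and 0.34 in E13.5 females, against 2.24 and 1.96 in E10.5 females, a 3.33-fold fall. In males it averaged 1.34 ± 0.12 at E13.5 and 1.88 ± 0.24 at E10.5 (SD, n = 2 each) and was not called. Slc3a2, the shared heavy chain, fell 1.91-fold in females and 1.41-fold in males.

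The glutamate transporter Slc1a3 was at -5.87 and -5.27 in E13.5 females and -5.54 and -7.01 in E13.5 males, against -0.89 and -1.60 in E10.5 females and -1.0 and -1.63 in E10.5 males. This was a 20.1-fold fall in females (limma adjusted p = 0.000277) and a 31.1-fold fall in males (adjusted p = 0.000105), with 1 male E13.5 array below background. The E13.5 and E10.5 arrays were far apart in both sexes. The taurine transporter Slc6a6 fell 15.8-fold in females, to -4.50 and -4.10 at E13.5, against -0.48 and -0.16 at E10.5. In males it stood at -1.94 and -1.58 at E13.5, against -0.69 and -0.18 at E10.5, and was not called. Slc38a3, a glutamine carrier, fell 6.96-fold in females and 5.75-fold in males.

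Slc1a5 and Slc38a2, both carriers of glutamine and other small neutral amino acids, fell 3.53-fold and 3.28-fold in females. Slc6a9, a glycine transporter, was 1.95-fold higher in E13.5 than in E10.5 females, and the creatine transporter Slc6a8 at least 2.25-fold, but with a difference of -0.21 with normexp background correction. In males Slc7a6, a partner of Slc3a2, fell 1.91-fold. Slc1a3, Slc6a6 and Slc7a3 in females and Slc1a3 and Slc7a3 in males kept their call under every alternative. The calls of Slc6a8 and Slc6a9 in females and of Slc3a2, Slc7a1 and Slc38a3 in males were each lost when 1 array was left out. With the authors' value table, females had 1 higher and 3 lower, and males 0 higher and 2 lower. A second, dimmer probe of Slc3a2 did not follow the brighter one here, at -2.98 in E13.5 and -2.96 in E10.5 females and at -2.79 in E13.5 and -3.09 in E10.5 males.

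At E10.5 itself no transporter was called between the sexes. None of 13 transporters tested was called between males and females by limma, 1 had an unadjusted p under 0.05, and 0.0458% of all features were called, 0.0229% higher and 0.0229% lower in males. Of features detected on all 4 arrays 0.0308% were lower, and none of the 12 transporters among them was called. That count was 0 under every alternative tried.

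By E13.5 a sex difference was measured in 4 transporters, all higher in males, of 18 tested. Together 22.2% were called, near the 19.4% of all features. Of all features 7.28% were higher in males and 12.2% lower. The median transporter difference was 0.24, against -0.13 over all features. Slc38a2 was at -0.09 and -0.24 in E13.5 males, against -1.98 and -1.73 in E13.5 females (1.69 ± 0.31, limma adjusted p = 0.000995). Slc6a6 was at -1.94 and -1.58 in males, against -4.50 and -4.10 in females (2.55 ± 0.66, adjusted p = 0.0124). In both genes the male arrays lay well above the female ones.

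Slc1a5 was 2.28-fold and Slc7a5 1.97-fold higher in E13.5 males than in E13.5 females. All 4 of these were detected on every array of both sexes, which 12 transporters were, beside 7.92% higher and 10.1% lower among all such features. The difference between arrays of the same scan day was 1.89 and 1.49 for Slc38a2 and 2.57 and 2.53 for Slc6a6. Slc38a2 alone kept its call whichever array was left out: the count was 1 without the first female array, and 2 without the second female or the second male array. With the deposited values, none was higher in males and 1 was lower, and the difference of Slc7a5 was -0.07. The Sertoli cell markers, which belong to the somatic cells around male germ cells, summed to a level of 1.08 and -0.12 in E13.5 males, with all 5 detected, against -3.51 and -3.64 in E13.5 females, with 2 of 5 detected on both arrays. Their part in these differences was not tested.

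Between E13.5 and E17.5, when male germ cells stop dividing and female ones are in meiosis, most of the transporters called in males rose, and in females 3 rose and 5 fell. In males, 17 were higher at E17.5 than at E13.5 and 1 was lower, of 31 tested (58.1% called and 54.8% higher, where 48.1% of all features were called, 33.2% higher and 14.9% lower; median difference 1.95, or 0.89 with bounds in place of values below background, against 0.50 over all features). Of the 31, 18 were not detected on every E13.5 array and so entered through the E17.5 side. Among the 12 detected on every array of both stages, 5 were higher and 1 was lower, beside 22.9% and 21.1% of all such features. Without the second E17.5 male array the count called fell to 11, with the percentile taken over all probes 9 were higher and 2 lower, and with normexp background correction 6 were called in all.

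Markers of other cell types moved with this step in males. The Sertoli markers summed to 2.98 and 1.88 in E17.5 males, against 1.08 and -0.12 in E13.5 males, with all 5 detected at both ages. The fibroblast markers summed to -0.22 and 0.41, with 4 of 6 detected, against -1.73 and -1.72 at E13.5, with 2 of 6. The blood and endothelium markers summed to 1.93 and 0.17, with 2 of 6 detected, against -0.28 and -1.96, with 1 of 6. What part these had in the changes was not tested.

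Slc38a5, a glutamine, serine and glycine carrier encoded on chromosome X, was at -0.22 and -0.85 in E17.5 males, against -4.43 and -6.34 in E13.5 males, the second of these below background. That is 4.86 ± 1.27 (limma adjusted p = 0.00528), a call lost without the second E13.5 male array. Slc1a6, a glutamate transporter best known from cerebellar neurons, was at -0.50 and -0.93 in E17.5 males, against -4.62 and -6.13 in E13.5 males, the second below background, and rose 25.2-fold (adjusted p = 3.92e-05). In both genes the E17.5 arrays were far above the E13.5 arrays.

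The same step raised Slc6a12, a betaine and GABA transporter, at least 5.83-fold, and Slc6a4, the serotonin transporter, at least 6.49-fold. Slc6a12 read -3.36 and -3.32 in E17.5 males and Slc6a4 read -3.35 and -3.02, and neither passed background on an E13.5 male array. Other carriers of neurotransmitters and related amines rose by at least 1.75-fold (Slc6a3, dopamine) and 1.72-fold (Slc6a8, creatine). Further bounds were given by Slc7a10 (at least 1.5-fold), Slc7a14 (at least 1.85-fold), Slc1a7 (at least 1.95-fold) and Slc6a15, a neutral amino acid carrier (at least 2.88-fold). Slc1a3 rose 11.3-fold, Slc38a3 7.83-fold, Slc43a3, which moves purine bases, 4.21-fold, and Slc7a1 3.85-fold. For Slc1a3 and Slc43a3, 1 of the 2 E13.5 arrays was above background. The detection limit lay at -6.71 and -6.10 on the E17.5 male arrays and at -6.78 and -4.99 on the E13.5 male arrays.

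The exchanger pair rose as well, Slc7a5 by 2.26-fold and Slc3a2 by 1.47-fold. Slc6a9 was 2-fold higher. Slc7a6 was the single transporter that fell in males, to -4.67 and -4.86 at E17.5, against -2.51 and -2.80 at E13.5 (-2.11 ± 0.26, limma adjusted p = 7.97e-06). Slc1a6 and Slc7a6 kept their calls under every alternative. Without 1 array or another, the calls of Slc3a2, Slc6a4, Slc6a9 and Slc38a5 were lost.

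At E17.5 the sexes differed in more transporters than at E10.5 or E13.5, and more features of any kind differed as well. Of all features 54.8% were called at E17.5, 19.4% at E13.5 and 0.0458% at E10.5, and more transporters were tested at E17.5. Of 30 transporters tested, 20 were higher in E17.5 males than in E17.5 females and 2 were lower (66.7% higher, where 32.1% of all features were higher and 22.7% lower; median difference 2.59, or 1.57 with bounds, against 0.27 over all features). As 20 of the 30 were not detected on every female array, the 10 detected on all 4 arrays were counted apart. Of these, Slc1a5, Slc3a2, Slc7a1, Slc7a5 and Slc38a2 were higher in males and Slc6a9 and Slc7a6 lower, beside 22.3% and 27.3% of all such features, and Slc7a11, Slc38a7 and Slc38a10 were not called. The detection limit lay at -6.71 and -6.10 on the male and at -5.86 and -7.02 on the female arrays, with 45.9% and 43.6% of probes passing on the male and 33.6% and 44.1% on the female arrays. With normexp background correction 9 were called in all, and under the other scalings the split was 19 against 3 (percentile over all probes), 20 against 2 (quantile) and 15 against 0 (deposited value table).

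Slc38a5 was at -0.22 and -0.85 in E17.5 males, against -7.69 and -8.71 in E17.5 females, neither above background: at least 60.1-fold higher in males. Slc38a3 was at -2.06 and -2.28 in males, against -7.65 and -7.49 in females, also below background, at least 19.2-fold. Slc1a6 was at -0.50 and -0.93 in males, against -6.82 and -5.09 in females, with 1 female array above background, and was 37.7-fold higher in males (limma adjusted p = 8.09e-06). No female array came near a male array in any of these genes.

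Slc6a4 and Slc6a12 were at least 9.54-fold and at least 8.58-fold higher in males. Slc6a6, the taurine transporter, was at -1.44 and -1.17 in males, against -6.76 and -4.33 in females, an 18.9-fold difference with 1 female array below background. Slc43a3 was at least 4.25-fold and Slc6a15 at least 4.24-fold higher in males, and Slc1a3 9.69-fold. Slc6a3, Slc6a13, Slc6a17, Slc7a9, Slc7a10 and Slc7a14 had bounds from 2.16-fold to 3.14-fold.

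Slc7a5 was at 2.55 and 2.48 in E17.5 males, against -0.12 and -0.19 in E17.5 females, a 6.38-fold difference (limma adjusted p = 8.72e-07) that was 2.67 on one scan day and 2.68 on the other. Slc3a2 was at -0.60 and -0.52 in males, against -2.49 and -2.21 in females, 3.45-fold. The pair thus differed in the same direction, and a second, dimmer probe of each was also higher in males, at -1.25 against -3.66 for Slc7a5 and at -1.89 against -3.97 for Slc3a2. Dimmer probes of Slc7a1 and Slc1a3 were not higher in males, at -7.91 against -6.84 and at -8.43 against -7.90, but passed background on 10 and 12 of the 28 arrays only. Slc6a9 ran the other way, at -0.51 and -0.71 in males, against 0.55 and -0.21 in females (-0.78 ± 0.29, adjusted p = 0.0338), but lost its call without either male array or the first female array. The calls of Slc7a1 and Slc7a6 were likewise lost when 1 array was left out. Slc1a6, Slc6a12, Slc7a5, Slc38a3 and Slc38a5 kept theirs under every alternative.

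**Figure D3:**
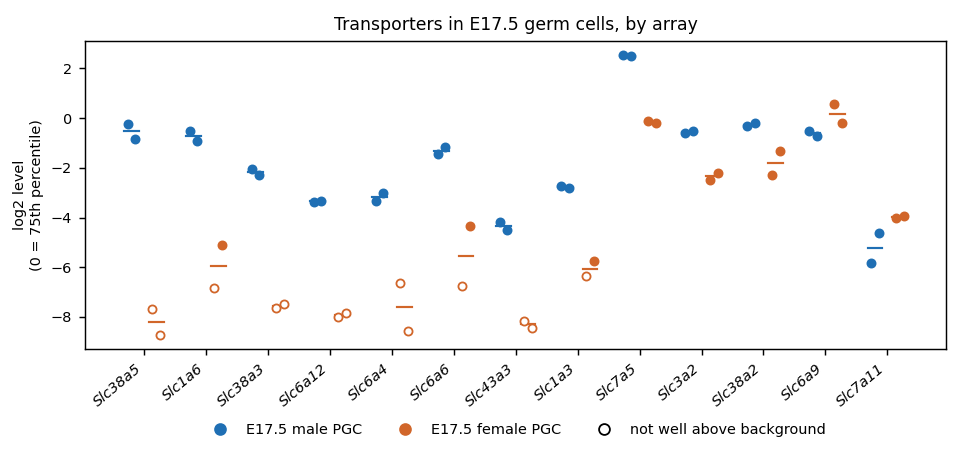
Log2 level of 13 transporters on each array of E17.5 male PGC (blue) and E17.5 female PGC (orange), with open circles for spots not well above background and a line at the mean of 2 arrays. Slc38a5 sits at -0.22 and -0.85 in males and at -7.69 and -8.71 in females, whereas Slc6a9 and Slc7a11 are the genes with higher female means.

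The values of other cell types moved with this contrast. The 5 Sertoli markers on the array were all detected in E17.5 males and summed to 2.98 and 1.88, against -3.39 and -2.34 in E17.5 females, where 1 of 5 was detected on both arrays and 2 on neither. Sox9, which defines the Sertoli cell, averaged -1.17 in E17.5 males and -7.09 in E17.5 females. The blood and endothelium markers summed to 1.93 and 0.17 in males and to 4.07 and 1.49 in females, led by the haemoglobin gene Hba-a1, with 2 of 6 detected on both arrays of each sex. Their part in the differences between E17.5 males and females was not tested. In spermatogonia the Sertoli markers summed to -0.44 and -0.57, and Slc38a5 stood there at -2.04 and -2.11, Slc6a4 at -3.32 and -3.43 and Slc7a5 at 1.91 and 1.65.

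Whether the change from E13.5 to E17.5 itself differed between the sexes was tested as an interaction. Of 31 transporters, 10 had a more positive change in males and 1 in females (19.2% and 13.2% of all features; median 1.70, against 0.27 over all features). The 11 called made up 35.5% of those tested, close to the 32.4% of all features. Of the 11, Slc3a2, Slc7a1, Slc7a5 and Slc38a7 were detected on all 8 arrays. Slc1a6 (4.31 ± 0.94) and Slc1a3 (3.98 ± 1.06) were each below background on 1 E13.5 male and 1 E17.5 female array. The values of Slc38a3 and Slc43a3 rest on E17.5 female levels below background and are not exact. For Slc7a5 the difference between the changes was 1.70 ± 0.39 and for Slc3a2 1.30 ± 0.26. Slc38a7, a glutamine carrier of the lysosome, was the one with the more positive change in females, at -1.47 ± 0.53. With normexp background correction 2 were called.

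The promoters of 3 of the genes called higher in both E17.5 male comparisons are shown as examples. Other transporters were called higher in both as well, among them Slc1a3, Slc6a3, Slc6a12, Slc7a5, Slc7a14 and Slc38a3. Each is the 250 bases before the RefSeq start (GRCm38.p6), 5′ to 3′ on the gene's strand, with capitals at GGGCGG or its reverse complement CCGCCC, the GC box. The windows are chrX:8271131-8271380 (plus strand) for Slc38a5, chr10:78780246-78780495 (plus) for Slc1a6 and chr11:76998347-76998596 (plus) for Slc6a4.
Slc38a5: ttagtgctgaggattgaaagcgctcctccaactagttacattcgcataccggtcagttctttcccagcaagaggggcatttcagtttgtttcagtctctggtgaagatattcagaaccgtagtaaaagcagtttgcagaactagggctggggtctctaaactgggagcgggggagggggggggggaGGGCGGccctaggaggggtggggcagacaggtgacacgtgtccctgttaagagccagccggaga
Slc1a6: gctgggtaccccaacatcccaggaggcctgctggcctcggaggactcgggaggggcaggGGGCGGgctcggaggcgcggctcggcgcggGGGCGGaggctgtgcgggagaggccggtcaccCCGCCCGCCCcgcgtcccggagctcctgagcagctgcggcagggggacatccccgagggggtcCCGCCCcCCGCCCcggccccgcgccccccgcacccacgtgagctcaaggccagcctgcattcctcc
Slc6a4: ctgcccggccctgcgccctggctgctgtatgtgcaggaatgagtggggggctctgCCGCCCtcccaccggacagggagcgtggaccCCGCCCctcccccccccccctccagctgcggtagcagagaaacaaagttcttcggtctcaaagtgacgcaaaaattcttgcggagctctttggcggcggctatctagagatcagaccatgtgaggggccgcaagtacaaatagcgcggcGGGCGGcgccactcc
The GC box was found 1 time before Slc38a5, 6 times before Slc1a6 and 3 times before Slc6a4, with overlapping matches counted. Of all 32851 promoter windows of this length, 32.7% held it at least once and 8.47% at least 3 times. These windows had 8, 26 and 18 CG pairs, and the median over all windows was 6. Windows were given for 32 of the 49 transporters, 51 windows in all, of which 47.1% held the box. Among other genes called higher in both comparisons, no window of Slc6a12 held it, and those of Slc7a14 and Slc6a3 held it 3 times each.

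In females the step to E17.5 brought changes in both directions. Of 18 transporters tested, 3 were higher in E17.5 than in E13.5 females and 5 were lower, together 44.4%, near the 40.2% of all features called (27.8% were lower, where 17.5% of all features were lower and 22.7% higher; median -0.50, or -0.38 with bounds, against 0.11). Of the 18, 8 were not detected on every E17.5 array and so entered through the E13.5 side. Among the 9 detected on every array of both stages, 2 were higher and 2 lower, beside 22.8% and 14.5% of all such features (median 0.07, against 0.19). In the deposited value table the split was 1 against 4, and with normexp background correction 2 were called. The blood and endothelium markers summed to 4.07 and 1.49 in E17.5 females, with 2 of 6 detected on both arrays, against -1.21 and -5.78 in E13.5 females, with 1 of 6, and Hba-a1 averaged 2.73 in E17.5 and -3.75 in E13.5 females. What part they had in the changes was not tested.

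Slc7a11, the cystine and glutamate exchanger, was at -4.03 and -3.93 in E17.5 females, against -8.65 and -10.18 in E13.5 females, both below background: at least 9.68-fold higher. It was the only transporter detected on both arrays of E17.5 females and on none of E13.5 females. Its call was lost without the second E13.5 female array.

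Slc6a9 was at 0.55 and -0.21 in E17.5 females, against -0.99 and -1.40 in E13.5 females, 2.58-fold higher (limma adjusted p = 0.00139), and the later arrays lay above both earlier ones. Slc38a7 was 2.36-fold higher, a call lost without the first array of E17.5 females or either array of E13.5 females. Slc7a6 fell 3.67-fold (-1.87 ± 0.25, adjusted p = 2.53e-05), as it did in males, and its call held under every alternative. Slc7a9 fell at least 4.09-fold, Slc38a3 at least 1.79-fold and Slc43a3 at least 1.36-fold in females, and Slc3a2 fell 1.67-fold. The call of Slc38a3 was lost without the first array of E17.5 or of E13.5 females, and its difference was 0.28 with normexp background correction. The call of Slc3a2 was lost without the first array of E17.5 females.

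The promoter of Slc7a11 is shown because this transporter was detected in both sexes at E17.5 and on no E13.5 array, and its window held a motif rare among promoters. The window is chr3:50443614-50443863 on the minus strand of GRCm38.p6, from RefSeq, with capitals at TGATGNAA on either strand, the amino acid response element bound in mouse by Atf4 and its partners.
Slc7a11: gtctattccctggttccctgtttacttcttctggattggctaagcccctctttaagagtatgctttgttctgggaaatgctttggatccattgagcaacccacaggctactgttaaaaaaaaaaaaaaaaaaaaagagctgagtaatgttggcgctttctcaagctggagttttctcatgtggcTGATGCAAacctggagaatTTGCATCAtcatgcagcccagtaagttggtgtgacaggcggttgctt
The motif stood 2 times, from 66 to 59 and from 47 to 40 bases before the start, on opposite strands and without overlap. It occurred in 3.45% of all promoter windows, and at least 2 times in 13 of 32851 (0.0396%). Among the 51 windows of transporters 3 held it, the others being windows of Slc7a7. In E17.5 males Slc7a11 stood at -5.84 and -4.61, detected on both arrays, and in E13.5 males it was below background on both. The male difference, which rests on those dim values, was not called (2.81 ± 1.41, limma adjusted p = 0.108). On the second E13.5 male array the detection limit was -4.99, above the first E17.5 male value. A second, dimmer probe averaged -7.72 in E17.5 females and -9.53 in E13.5 females and passed background on 7 of the 28 arrays.

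Few differences were called between oogonia and E17.5 female PGC. None of 16 transporters tested was higher in oogonia than in E17.5 female PGC and 2 were lower, together 12.5%, where 22.5% of all features were called, 6.87% higher and 15.7% lower (median -0.20, against -0.27). Of features detected on all 4 arrays 7.99% were higher and 19.7% lower, and of the 10 such transporters 0 and 2. They were Slc38a2, 2.02-fold lower, and Slc3a2, 1.61-fold lower. Both calls rested on single arrays: the count was 4 without the first E17.5 female array, and 1 without the second or without either oogonia array. No transporter was called with the percentile over all probes, quantile normalization, the deposited value table, a fit on these groups alone or slide as a random block at the estimated correlation of 0.618, and 5 were with normexp background correction. The Slc3a2 difference was 0.12 in the deposited value table. Slc7a11 was at -3.06 and -3.17 in oogonia, against -4.03 and -3.93 in E17.5 females, and Slc6a9 at 0.70 and 0.60, against 0.55 and -0.21. Neither was called.

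Most transporters of E17.5 males were also present in spermatogonia. Of the 30 transporters detected on both arrays of E17.5 males, 25 were detected on both arrays of spermatogonia, and the other 5 were Slc6a8, Slc6a11, Slc6a13, Slc6a17 and Slc38a7. The same overlap was not counted over all features, so it cannot be read as particular to transporters. Of 31 tested, 2 were higher and 2 lower in spermatogonia than in E17.5 male PGC, together 12.9%, where 19.6% of all features were called, 8.52% higher and 11.1% lower (median -0.38, against -0.11). Among the 25 detected on all 4 arrays 2 were higher and none lower, beside 8.84% and 10.4% of all such features. Slc7a6 was at -3.26 and -3.23 in spermatogonia, against -4.67 and -4.86 in E17.5 males (2.87-fold higher, limma adjusted p = 0.00104), and Slc7a9 was 2.96-fold higher. Slc6a8 was at least 3.24-fold and Slc38a7 2.42-fold lower in spermatogonia. The call of Slc7a6 survived each array left out, but the other 3 did not, and the count was 1 without the second E17.5 male or the first spermatogonia array and 2 without either of the others. With quantile normalization, or the percentile over all probes, the split was 3 against 0, and with a fit on these 2 groups alone 10 were called. None was called with the deposited value table, with normexp background correction or with slide as a random block, and 1 was with no filter on dim probes.

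Slc38a5 stood at -2.04 and -2.11 in spermatogonia, against -0.22 and -0.85 in E17.5 males, and Slc1a6 at -2.25 and -2.45, against -0.50 and -0.93. Both were lower on every spermatogonia array, and neither difference was called. Slc6a15, Slc6a4 and Slc7a14 differed by less than 1 log2 unit between these groups. The Sertoli markers summed to -0.44 and -0.57 in spermatogonia, against 2.98 and 1.88 in E17.5 males, and their part in these values was not tested.

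Set directly against each other, spermatogonia had 22 transporters higher than oogonia and 2 lower, of 27 tested (81.5% higher, where 32.8% of all features were higher and 17.7% lower; median 3.89, or 2.84 with bounds, against 0.32). Among the 15 detected on all 4 arrays, 11 were higher and 1 was lower, beside 32.6% and 19.4% of all such features. These groups also serve in the comparisons with E17.5 PGC above. Both spermatogonia arrays shared 1 slide and scan day and both oogonia arrays another, so sex, slide and scan day cannot be told apart here. All 4 SLC1 genes tested, all 3 cationic carriers and 4 of 5 SLC7 light chains were higher in spermatogonia. The lower ones were Slc6a9 and Slc38a7. Slc7a11 was not called, at -5.95 and -5.64 in spermatogonia against -3.06 and -3.17 in oogonia.

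Slc38a5 was at -2.04 and -2.11 in spermatogonia, against -7.66 and -9.97 in oogonia, with 1 oogonia array above background (6.74 ± 1.28, limma adjusted p = 0.000365). Slc6a15, Slc7a14, Slc7a10 and Slc1a7 were below background in oogonia and at least 18.4-fold, 19.9-fold, 16.2-fold and 15.8-fold higher in spermatogonia, and Slc38a3 at least 29.9-fold. Slc6a6 was at -0.61 and -0.77 in spermatogonia, against -4.13 and -6.62 in oogonia, 25.8-fold. These spermatogonia arrays all lay far above the oogonia arrays.

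The exchangers followed, with Slc7a5 at 1.91 and 1.65 in spermatogonia, against 0.00 and -0.15 in oogonia (3.61-fold), and Slc3a2 4.26-fold higher. Slc1a5, the glutamine carrier, was 7.17-fold and Slc38a2 4.88-fold higher in spermatogonia. Slc6a9 was at -1.18 and -0.91 in spermatogonia, against 0.70 and 0.60 in oogonia, a 3.24-fold lower level (adjusted p = 0.00019) that kept its call under every alternative, as did Slc1a3, Slc1a7, Slc6a15, Slc7a14 and Slc38a5. The calls of Slc7a3 and Slc38a7 were lost without single arrays, and Slc38a7 had a difference of 0.16 with normexp background correction. The Sertoli markers summed to -0.44 and -0.57 in spermatogonia, against -2.70 and -3.06 in oogonia, with all 5 detected in both. The pregranulosa markers summed to -0.86 and -1.10 in spermatogonia, against -3.26 and -3.20 in oogonia, and the fibroblast markers to 0.20 and 0.06, against -0.33 and -2.87. Their part in the differences was not tested.

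**Figure D4:**
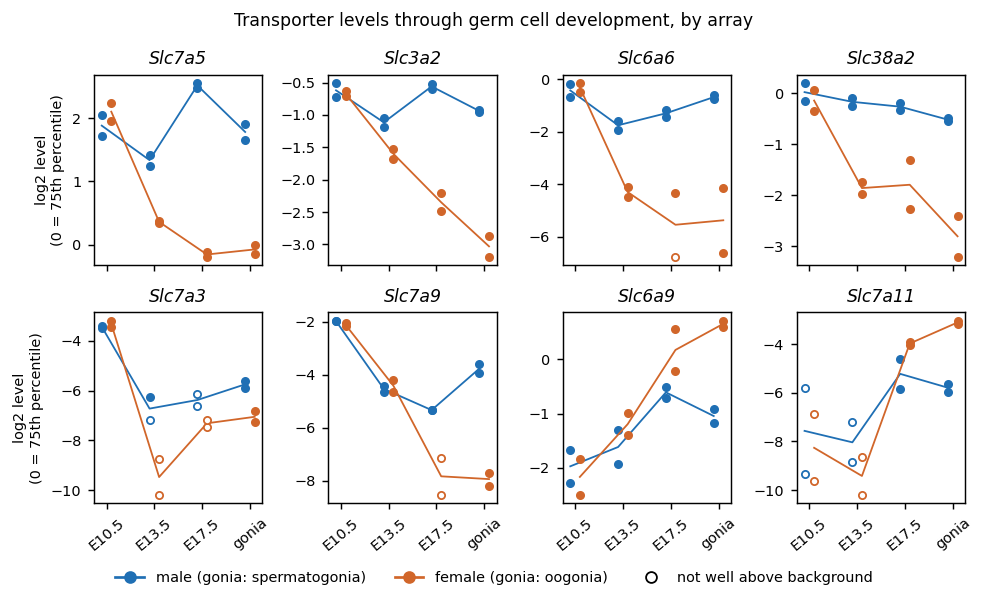
Log2 level of 8 transporters on each array of male (blue) and female (orange) germ cells at E10.5, E13.5 and E17.5 and in gonia (spermatogonia and oogonia), with lines through the means and open circles for spots not well above background. The means of Slc7a5, Slc3a2, Slc6a6 and Slc38a2 start together at E10.5 and lie higher in males from E13.5 on. At E13.5 Slc3a2 was not called between the sexes, and of the others only Slc38a2 kept its call whichever array was left out. The means of Slc6a9 and Slc7a11 end higher in oogonia than in spermatogonia, a difference called for Slc6a9 only.

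EG cells, pluripotent lines grown out of PGC, had 12 transporters higher and 3 lower than E13.5 PGC (both sexes averaged), of 31 tested (38.7% higher, where 18.5% of all features were higher and 24.7% lower; median 0.14, against -0.19). Among the 12 detected on every array of both sides, 6 were higher and 2 lower, beside 21.3% and 36.2% of all such features. In the deposited value table the split was 12 against 1. With slide as a random block 8 were called, with normexp background correction 25 and with no filter on dim probes 29.

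Slc7a3, encoded on chromosome X, was at 0.72 and 0.52 in female and 0.20 and 0.11 in male EG cells, against -8.77, -10.18, -6.25 and -7.20 in E13.5 PGC, of which 1 was above background (8.49 ± 0.28, limma adjusted p = 9.53e-12). All 4 EG arrays lay more than 6 log2 units above the brightest PGC array. Slc6a15 was at -2.61 to -3.47 in EG cells and below background on all E13.5 arrays, at least 11.7-fold higher. Slc38a2 was at 1.19, 0.66, 1.70 and 1.47 in EG cells, against -1.98, -1.73, -0.09 and -0.24 in E13.5 PGC, 4.79-fold higher. EG and PGC arrays did not overlap for it.

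Slc1a5 was 4.57-fold, Slc7a1 4.3-fold, Slc6a6 6.93-fold and Slc1a3 8.61-fold higher in EG cells. Slc7a7, a light chain that exports dibasic amino acids, was 7.9-fold higher, with 1 of 4 PGC arrays above background, but had a difference of -0.40 with normexp background correction. Lower in EG cells were Slc6a17 (at least 10.2-fold), Slc7a9 (3.66-fold) and Slc6a9 (2.09-fold). Slc1a5, Slc6a15, Slc7a3 and Slc38a2 kept their calls under every alternative.

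ES cells had 8 transporters higher and 8 lower than E10.5 PGC, of 32 tested (25% each, where 16.1% of all features were higher and 23.5% lower; median 0.07, or 0.00 with bounds, against -0.30). The split depended on the scaling: it was 12 against 5 with quantile normalization and 10 against 1 in the deposited value table, and with slide as a random block 5 were called, with normexp background correction 27 and with no filter on dim probes 31. For 3 of the 8 lower ones, Slc6a4, Slc6a11 and Slc6a12, no E10.5 array was above background, though both female ES arrays were. Their E10.5 values have no order, so these 3 cannot be read as lower in ES cells. Among the 11 detected on every array of both sides, 4 were higher and 4 lower, beside 19.1% and 32.8% of all such features. The higher ones were Slc1a5, Slc3a2, Slc7a3 and Slc38a2, and the lower ones Slc7a5, Slc7a6, Slc38a3 and Slc38a10. The call of Slc3a2 was lost when 1 array or another was left out, and Slc7a5 turned direction in the deposited value table.

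Slc7a3 was at 1.79 and 1.67 in the female and 0.79 and 0.62 in the male ES line, against -3.21, -3.44, -3.47 and -3.40 in E10.5 PGC, 24.2-fold higher (limma adjusted p = 4.96e-09). Slc7a1 was 15.7-fold higher, with 2 of 4 PGC arrays above background. Slc7a9 was at -5.86 and -6.24 in the female and -8.00 and -8.55 in the male line, the last below background, against -2.05, -2.17, -1.97 and -1.97 in E10.5 PGC (-5.12 ± 0.32, adjusted p = 7.1e-09). For all 3 genes the ES and PGC arrays stood apart.

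Slc38a2 was 3.05-fold higher in ES cells, and with Slc7a1, Slc7a3 and Slc7a9 it kept its call under every alternative. Slc6a15 was at least 8.01-fold and Slc6a8 at least 3.81-fold higher, but the difference of Slc6a8 was -0.15 with normexp background correction. Slc7a6 was 2.34-fold, Slc38a3 4.71-fold and Slc38a10 2.08-fold lower. The female ES line had fibroblast markers at a summed level of 1.32 and 0.47, all 6 detected, against -1.92 and -2.27 in E10.5 female and -1.78 and -2.15 in E10.5 male PGC, and the male ES line had -2.0 and -2.10. Their part in the ES values was not tested.

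Few transporters were called between EG and ES cells. Of 33 transporters tested, 1 was higher and 1 lower in EG cells, together 6.1%, where 7.06% of all features were called (median -0.37, or -0.30 with bounds, against 0.09). These were Slc1a6, 3.2-fold higher in EG cells, and Slc6a11, at least 2.33-fold lower. The number called was between 0 and 3 with an array left out, 0 without the first male ES array, and 12 in a fit on the EG and ES arrays alone. With the percentile over all probes the split was 0 against 2, and with quantile normalization 1 against 0.

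GS cells, cultured stem cells of the male germline, had 5 transporters higher and 10 lower than spermatogonia, of 39 tested (25.6% lower, where 13.5% of all features were lower and 12% higher; median -0.35, against 0.02). Among the 23 detected on every array of both sides, 3 were higher and 7 lower, beside 14.2% and 20.8% of all such features. The arrays of GS cells differed from each other more than those of any other group, with a median difference of 0.81 between them over the transporters detected on both, against 0.16 to 0.61 elsewhere. Without the first spermatogonia array 4 were called, without the second 9 and without the first GS array 7. With slide as a random block at the estimated correlation of 0.618 the count was 2, in a fit on these 2 groups alone 9, with normexp background correction 28 and with no filter on dim probes 23. With quantile normalization or with the percentile over all probes the split was 3 against 10, and 1 against 9 in the deposited value table.

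Slc7a10, which carries small neutral amino acids such as serine and glycine, was at -11.82 and -12.70 in GS cells, both below background, against -4.50 and -4.49 in spermatogonia, at least 54.6-fold lower. Slc7a14 was at -11.33 and -10.74 in GS cells, also below background, against -4.09 and -4.31 in spermatogonia, at least 67-fold lower. GS and spermatogonia arrays were far apart in both genes, and both calls held under every alternative. Slc1a7 was 13.2-fold, Slc36a2 12.3-fold, Slc6a15 12.2-fold and Slc6a3 12.1-fold lower in GS cells. Slc7a9 was 6.57-fold and Slc7a5 2.11-fold lower.

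Higher in GS cells were Slc6a8 (at least 7.04-fold), Slc38a7 (2.81-fold, but -0.48 with normexp background correction), Slc43a3 (2.75-fold), Slc1a5 (2.12-fold) and Slc7a6 (1.89-fold). Each of Slc1a3, Slc1a5, Slc1a7, Slc6a8, Slc7a5, Slc36a2, Slc38a7 and Slc43a3 lost its call without 1 array or another. Fibroblast markers summed to 4.04 and 1.05 in GS cells, all 6 detected, against 0.20 and 0.06 in spermatogonia, with 4 of 6 detected on both arrays. Their part in the differences was not tested. Spermatogonia are also the comparison group for testis, so both sets of results share those arrays.

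Whole testis had 3 transporters higher and 15 lower than spermatogonia, of 42 tested (35.7% lower, where 19.6% of all features were lower and 25.3% higher; median -0.67, against 0.20). Among the 21 detected on every array of both sides, 1 was higher and 10 lower, beside 23.4% and 34.1% of all such features. Slc1a5, Slc3a2, Slc6a9 and Slc38a2 were among those 10. The calls of Slc1a5, Slc3a2 and Slc6a9 were lost when 1 array or another was left out. With the percentile over all probes the split was 1 against 17. With slide as a random block 9 were called, with normexp background correction 33 and in a fit on these 2 groups alone 28.

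Slc6a15 was at -11.69 and -12.34 in testis, below background, against -4.03 and -4.59 in spermatogonia, at least 55.6-fold lower. Slc38a3 was at least 78.7-fold and Slc6a3 at least 18.8-fold lower in testis. Slc7a10, detected on 1 testis array, was at -9.56 and -10.20, against -4.50 and -4.49 in spermatogonia (41.8-fold), and Slc38a1, likewise, was 14.2-fold lower. Testis and spermatogonia arrays did not overlap for any of these.

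Slc7a5 was at -0.03 and -0.23 in testis, against 1.91 and 1.65 in spermatogonia, 3.76-fold lower. Slc1a6 was 15.5-fold, Slc7a9 14.3-fold, Slc43a3 8.82-fold and Slc6a4 8.09-fold lower. Higher in testis were the glutamate transporter Slc1a2 (at least 3.17-fold, at -4.99 and -5.27), the proline transporter Slc6a7 (at least 2.11-fold) and Slc7a6 (2.08-fold). Slc6a7 lost its call without any one of the 4 arrays, and Slc1a2 and Slc6a7 turned direction with normexp background correction, at -0.37 and -0.89. Slc6a3, Slc6a15, Slc7a5, Slc7a10, Slc38a1 and Slc38a3 kept theirs under every alternative. Markers of spermatocytes and spermatids summed to 4.84 and 4.91 in testis, all 4 detected, against -1.42 and -1.59 in spermatogonia, and Sertoli markers to 3.38 and 3.35, against -0.44 and -0.57. Their part in the differences was not tested.

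**Figure D5:**
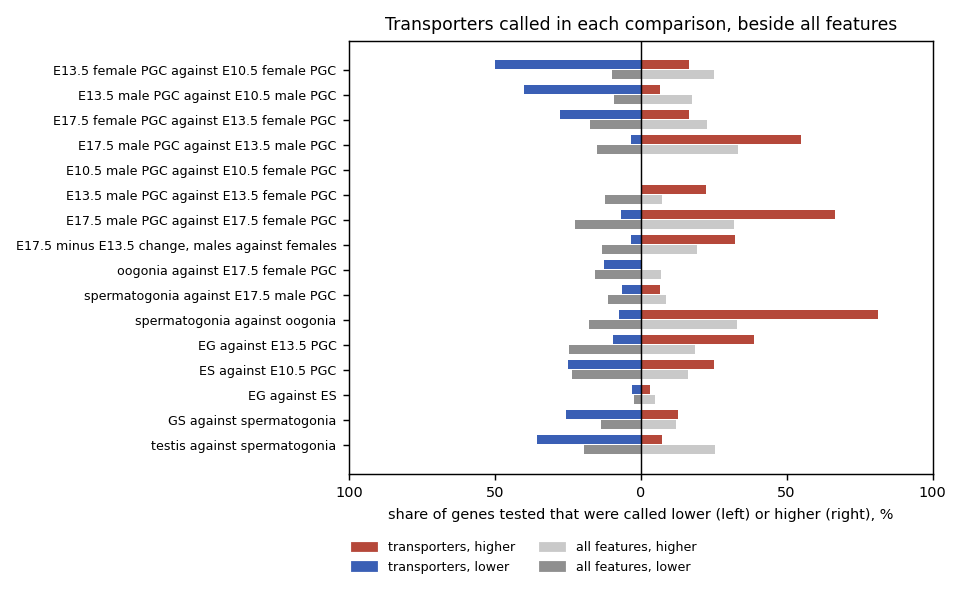
Share of transporters (red and blue) and of all features (grey) called higher to the right and lower to the left of 0, in % of those tested, for the 16 comparisons, each with the first-named group over the second. Transporters reach 81.5% higher in spermatogonia against oogonia, where all features reach 32.8%, and 50% lower in E13.5 against E10.5 females, where all features reach 9.95%.

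The light chains that pair with Slc3a2 did not move with it as a set. Between E17.5 males and females Slc3a2 and Slc7a5 were higher in males and Slc7a10 at least 2.2-fold, whereas Slc7a6 was 1.64-fold lower, a call lost without the second female or either male array (-0.17 on one scan day and -1.26 on the other), and Slc7a11 was not called, at -5.84 and -4.61 in males against -4.03 and -3.93 in females. Slc7a7 and Slc7a8 were not detected on both arrays of either. Slc7a7 was detected on both arrays of every EG and ES group and of GS cells and testis, and Slc7a8 in testis (-4.94 and -5.08), GS, male EG and female ES cells. Slc7a9 was detected on both arrays of every group other than E17.5 female PGC and the male ES line, while its partner Slc3a1 reached both arrays in GS cells and testis only.

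Other genes of amino acid metabolism were counted from lists chosen with earlier results of these data known. Of 16 genes of amino acid synthesis and breakdown tested, 13 were higher in E17.5 males than in E17.5 females and 1 was lower (32.1% and 22.7% of all features; median 1.94, against 0.27 over all features). Asparagine synthetase, Asns, averaged 2.23 in E17.5 males and -2.55 in E17.5 females (4.78 ± 0.21), and Gcat, an enzyme of threonine breakdown, -0.88 and -4.86. The lower one was Odc1, which makes polyamines (-1.15 ± 0.19). In spermatogonia against oogonia 12 of 16 were higher and 1 was lower (32.8% and 17.7% of all features). Among them were the glycine cleavage gene Gldc, below background in oogonia and at least 35.1-fold higher in spermatogonia, and Cth, which makes cysteine (5.84 ± 0.52, with 1 oogonia array below background).

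At the step from E13.5 to E17.5 the threonine dehydrogenase gene Tdh fell in both sexes, with differences of -6.76 ± 0.26 in females, where 1 E17.5 array was below background, and -4.92 ± 0.26 in males. Gldc fell at least 19.8-fold in females and by 2.48 ± 0.54 on the log2 scale in males. In females 9 of 14 synthesis and breakdown genes fell and 1 rose (17.5% and 22.7% of all features). In males 5 of 16 fell and 5 rose, where 14.9% of all features fell and 33.2% rose, so that the share that rose was near that of all features. In EG cells 15 of 18 were higher than in E13.5 PGC and none was lower (18.5% and 24.7% of all features), among them Cth (4.93 ± 0.37, with 2 of 4 PGC arrays above background) and Bcat2, which acts on branched-chain amino acids (4.05 ± 0.40, with 1 of 4). In ES cells 8 of 18 were higher than in E10.5 PGC and none was lower (16.1% and 23.5% of all features).

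Of the genes of the amino acid starvation response, 2 of 7 were higher in E17.5 males than in females, near the 32.1% of all features, and none was lower. They were Sesn2 (2.65 ± 0.49) and Chac1, below background in females and at least 3.9-fold higher in males. In EG against E13.5 PGC 4 of 9 were higher, where 18.5% of all features were, among them the transcription factor Atf4 itself (2.26 ± 0.23). In the list of mTORC1 sensing 2 of 6 were higher and 3 lower in E17.5 males than in females, where 32.1% of all features were higher and 22.7% lower, so that the share that was higher was near that of all features. Rragd, a Rag GTPase, differed by 4.28 ± 0.59, with 1 female array below background, and Lamtor3, a scaffold of the same complex, by -1.91 ± 0.23. In the glutathione list 2 of 4 were higher in those males (Gss, 2.25 ± 0.27, and Gsr, 1.59 ± 0.32) and 1 was lower (Gclm, -2.36 ± 0.32). Of carriers of other families 4 of 8 were higher and 1 was lower. Beside both of these short lists, 32.1% of all features were higher and 22.7% lower. Among the higher carriers was the vesicular GABA carrier Slc32a1, below background in females and at least 11.7-fold higher in males.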

How the data were processed

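Per the file headers, the arrays were a custom Agilent mouse design read with Agilent Feature Extraction 10.5.1.1, and the deposited scanner files give a background-subtracted, single-channel (Cy3) processed signal, an intensity on a linear scale. Per the labels' protocols, 50 ng of RNA was labelled for each array. The series' deposited value table holds log2 values, found to equal the log2 processed signal minus each array's median (largest deviation 0.00252).

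From the scanner files, control spots (1417) and 514 of 43803 probes with a non-uniform spot were left out, and log2 processed signals were set against each array's 75th percentile over the 7227 probes well above background on all 28 arrays. Probes were named through their RefSeq accession (16751 had a symbol) and the brightest probe of a gene was used. limma 3.58.1 (R 4.3.3) was fitted to 14 group means with 14 residual degrees of freedom, over genes that passed background on each array of 1 or more of the compared groups, with Benjamini-Hochberg adjustment over all of them. The number of arrays per group, 2, limits the precision. The fit was checked on simulated data.

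The transporters, lists and tests were chosen with earlier results of these data known. Values were given for up to 4 called transporters each way with the largest changes in each comparison. A fixed set of 11 central carriers, and the 2 largest changes each way in the other lists, were given values in some comparisons only. Alternatives were the percentile over all probes, quantile normalization, normexp background correction (offset 50, on the median foreground signal, since the files used here hold no mean signal column), the deposited value table, no filter on dim probes, the mean over a gene's probes, slide, scan day or replicate number as a block, a fit on the compared groups alone, and each array left out. Within PGC, the first and second arrays of a group were scanned on different days, so their separate differences are within-day values. Same-numbered arrays of the sexes shared a slide at each stage. The second arrays of E10.5 and E13.5 were on different slides, and so were the first arrays of E13.5 and E17.5, so those stage differences cross slides. Further genes of these families are not reported here.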

Additional observations from a re-analysis of the deposited data

Results flagged for a closer look

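For 11 transporters the change from E13.5 to E17.5 differed between males and females by limma's interaction test (adjusted p under 0.05), and 32.4% of all features did so. The male change minus the female change was 4.94 ± 0.79 (SE) for Slc38a3, whose means were -2.17 at E17.5 and -5.14 at E13.5 in males and -7.57 and -5.60 in females. Slc38a3, Slc43a3 and Slc7a9 were below background on both E17.5 female arrays, Slc6a8 on both E13.5 male arrays, and Slc6a12 on all E13.5 arrays and both E17.5 female arrays, so the values of these 5 rest in part on levels that have no order and are not exact. The value was 4.38 ± 0.65 for Slc43a3, 4.31 ± 0.94 for Slc1a6, 3.98 ± 1.06 for Slc1a3 and 3.91 ± 0.97 for Slc6a12. For Slc6a8 it was 3.26 ± 1.03 and for Slc7a9 2.62 ± 0.63. The exchanger pair had 1.70 ± 0.39 (Slc7a5) and 1.30 ± 0.26 (Slc3a2). For Slc7a1 it was 1.19 ± 0.44 and for Slc38a7 -1.47 ± 0.53, and these calls were lost without 6 and 7 of the 8 arrays left out in turn. The mean over its probes gave Slc7a1 a value of -0.64.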

How the results depend on the processing

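Of 126 gene results, 35 kept direction and call under every alternative. Over 1888 values from alternatives, 1523 kept both, 352 lost the call and 13 reversed. Of 160 counts of transporters called, 117 stayed within 1.5 times the reported one. The comparisons are given here by their groups, and the cause of a change was not tested.

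With the deposited value table the count was 4 for E13.5 against E10.5 females, 2 for E13.5 against E10.5 males, 5 for E17.5 against E13.5 females, 1 for E13.5 males against females, and 0 for oogonia against E17.5 females and for spermatogonia against E17.5 males. With the percentile over all probes it was 11 for E17.5 against E13.5 males and 0 for oogonia. Quantile normalization gave 0 for oogonia and 1 for EG against ES. With normexp background correction the count was 2 for E17.5 against E13.5 females, 6 for E17.5 against E13.5 males, 9 for E17.5 males against females, 2 for the interaction, 5 for oogonia, 0 for spermatogonia against E17.5 males, 25 for EG against E13.5 PGC, 27 for ES against E10.5 PGC, 0 for EG against ES, 28 for GS cells and 33 for testis.

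With no filter on dim probes it was 4 for E13.5 against E10.5 males, 11 for E17.5 against E13.5 males, 2 for E13.5 males against females, 1 for spermatogonia against E17.5 males, 29 for EG and 31 for ES against PGC, 1 for EG against ES and 23 for GS cells. With only the compared groups in the fit it was 3 for E13.5 against E10.5 males, 2 for E13.5 males against females, 0 for oogonia, 10 for spermatogonia against E17.5 males, 12 for EG against ES, 9 for GS cells and 28 for testis. With slide as a random block (consensus correlation 0.618) it was 0 for oogonia, 0 for spermatogonia against E17.5 males, 8 for EG and 5 for ES against PGC, 0 for EG against ES, 2 for GS cells and 9 for testis.

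With 1 array left out, counts ran from 10 to 12 (E13.5 against E10.5 females), 5 to 6 (E13.5 against E10.5 males), 6 to 10 (E17.5 against E13.5 females), 11 to 16 (E17.5 against E13.5 males), 0 to 0 (E10.5 sexes), 1 to 4 (E13.5 sexes), 16 to 21 (E17.5 sexes), 8 to 12 (interaction), 1 to 4 (oogonia), 1 to 2 (spermatogonia against E17.5 males), 22 to 25 (spermatogonia against oogonia), 12 to 14 (EG) and 13 to 19 (ES against PGC), 0 to 3 (EG against ES), 4 to 10 (GS cells) and 12 to 14 (testis).

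The reversed differences under normexp were -0.21 for Slc6a8 (E13.5 against E10.5 females), 0.28 for Slc38a3 (E17.5 against E13.5 females), 0.16 for Slc38a7 (spermatogonia against oogonia), -0.40 for Slc7a7 (EG against E13.5 PGC), -0.15 for Slc6a8 (ES against E10.5 PGC), -0.48 for Slc38a7 (GS cells), and -0.37 for Slc1a2 and -0.89 for Slc6a7 (testis). In the deposited table they were -0.07 for Slc7a5 (E13.5 sexes), 0.12 for Slc3a2 (oogonia) and 0.20 for Slc7a5 (ES against E10.5 PGC). With the mean over a gene's probes they were -0.64 for Slc7a1 (interaction) and 0.06 for Slc3a2 (testis).

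With the replicate number as a block the count was 23 for E17.5 males against females and 10 for the interaction, with no other count changed. Differences of same-numbered arrays correlated at 0.14 to 0.69 within PGC, where the number matches the scan day, and at -0.08 to 0.07 elsewhere, with 2 pairs each. Other scalings moved the median difference over all features by -0.63 to 0.54 (percentile over all probes), -0.48 to 0.65 (quantile) and -1.22 to 1.01 (deposited table). On 16 of 28 arrays under 50% of probes passed background, which limits what can be said of transporters not detected there.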

Other observations

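Of the 49 transporters 4 lie on chromosome X, namely Slc6a8, Slc6a14, Slc7a3 and Slc38a5. Slc7a3 averaged more in each female than in each male line of the pluripotent cells, at 0.72 and 0.52 in female and 0.20 and 0.11 in male EG cells, and at 1.79 and 1.67 in the female and 0.79 and 0.62 in the male ES line. Slc6a8 read -4.40 and -2.51 in female and -5.79 and -5.97 in male EG cells, and -2.83 and -3.29 in the female and -4.67 and -4.75 in the male ES line. The labels give both EG groups 1 cross, whereas the ES lines differ in strain as well as in sex, and none of these differences was tested.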
